A study of Arabidopsis thaliana with 18 samples.

Results

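FRUITFULL (FUL) is a MADS-domain transcription factor of Arabidopsis thaliana that acts in flowering and in fruit development, where it works as a dimer or tetramer with other MADS-domain proteins. Such complexes bind DNA at CArG-boxes, short elements made of a pair of C, a run of A or T letters and a pair of G. In the compact Arabidopsis genome most binding is sought close to gene starts, and DNA far from any start lies largely around the centromeres, in gene-poor sequence rich in repeats. The regions described here are the binding peaks of FUL complexes in that remote DNA: nuclear peaks whose summit lay outside every annotated gene and pseudogene and more than 3 kb from the start of every protein-coding gene. They are called distal peaks below. Of the 16010 nuclear peaks in 5 peak lists, 1727 were distal. Peaks of different lists that overlapped by at least 1 bp were joined into sites, which gave 873 distal sites among 8081 nuclear sites. At 26 distal sites a peak of another list had a summit that did not itself meet the definition, and such peaks count toward the lists and folds of the site.

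The peaks come from DAP-seq, in which proteins made in vitro are mixed with a library of purified genomic DNA, the tagged protein is pulled down and the bound fragments are sequenced. The 5 protein mixtures, FUL alone, FUL-AG, FUL-SEP3, FUL-AG-SEP3 and FUL-SOC1, were each run in 3 replicates beside 3 Input samples without FUL selection, 18 samples in all. In every mixture only FUL carried the tag (3xFLAG), so a peak stands for DNA held by FUL or by a complex that contains it. AGAMOUS (AG) and SEPALLATA3 (SEP3) are floral MADS-domain proteins that partner FUL in the fruit, and SOC1, a MADS-domain protein that promotes flowering, partners it in the inflorescence meristem. All mixtures received 400 ng of the same kind of DNA, from 2-week-old Col-0 seedlings, free of chromatin proteins, so the lists report what the complexes can bind and not what they occupy in a plant. The authors combined the 3 replicates of a mixture before peak calling. Each value below is therefore 1 pooled value per mixture with no replicate error, the intervals given are 95% intervals for counting error only (Wilson for a share, Newcombe for a difference of shares, exact Poisson for a density), and no p-value could be formed over samples. All coordinates are TAIR10, and the sequences were read from the RefSeq copy of that genome (TAIR10.1).

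The sequences that carry the main results are shown first. Sites are numbered D1 to D873 along the genome, and the 10 letters closest to a CArG-box are in capitals between 20 bases of flank on each side. The first group holds sites with the highest peaks or beside genes of interest, of which D534 has 2 near-identical copies, D672 has 7 and the others have none.
D534, chr3:15422823-15422872: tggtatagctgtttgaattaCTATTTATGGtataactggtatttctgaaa
D329, chr2:5462636-5462685: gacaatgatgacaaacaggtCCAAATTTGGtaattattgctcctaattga
D55, chr1:13168898-13168947: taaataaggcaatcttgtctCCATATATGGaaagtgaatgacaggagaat
D672, beside KNAT1, chr4:5146776-5146825: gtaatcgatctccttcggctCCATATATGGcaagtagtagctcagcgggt
D366, beside MIR156a, chr2:10676792-10676841: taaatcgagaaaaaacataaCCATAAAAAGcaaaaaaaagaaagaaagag
D394, beside NCED3, chr3:4829226-4829275: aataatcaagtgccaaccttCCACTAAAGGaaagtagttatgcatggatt
D555, beside HEC2, chr3:18661728-18661777: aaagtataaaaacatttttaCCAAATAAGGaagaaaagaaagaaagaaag

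The second group holds members of the 3 largest sets of near-identical distal sites, called R1, R2 and R3. For R2 a stretch of 73 bases is shown with each of its 3 separate boxes of at most 1 mismatch in capitals, and D463 and D335 read the repeat from opposite strands.
R1, D119, chr1: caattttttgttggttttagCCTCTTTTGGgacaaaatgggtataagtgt
R2, D463, chr3:12484439-12484511: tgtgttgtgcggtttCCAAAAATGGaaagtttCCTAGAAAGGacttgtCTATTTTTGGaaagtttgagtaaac
R2, D335, chr2:5781920-5781992: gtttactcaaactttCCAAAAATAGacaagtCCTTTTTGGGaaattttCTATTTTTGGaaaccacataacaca
R3, D74, chr1: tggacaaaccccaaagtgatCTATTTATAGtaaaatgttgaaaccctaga

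How often the 5 mixtures bound remote DNA was asked first. The distal part of the genome measured 12.1 Mb, 10.2% of the nuclear chromosomes, and distal peaks took 9.59 to 13.2% of each list. They were 538 of 4809 nuclear peaks for FUL-SOC1 (11.2%, 10.3 to 12.1), 471 of 4436 for FUL-AG-SEP3 (10.6%, 9.74 to 11.6) and 266 of 2572 for FUL (10.3%, 9.22 to 11.6). For FUL-AG they were 270 of 2814 (9.59%, 8.56 to 10.7), and for FUL-SEP3 182 of 1379 (13.2%, 11.5 to 15.1). FUL-SEP3, the shortest list, thus had the highest distal share, and among the 10 pairs of lists its difference from each other list had an interval that left out 0, from 2.01 points above FUL-SOC1 (0.0902 to 4.09) to 3.6 points above FUL-AG (1.57 to 5.76). Among the pairs without FUL-SEP3, only FUL-SOC1 against FUL-AG left out 0, at 1.59 points (0.161 to 2.98). The FUL-SEP3 differences rested in part on 1 repeat. Without the 31 sites of R2 the FUL-SEP3 share was 11.2% and its difference from FUL-SOC1 was 0.237 points (-1.58 to 2.22). Only that from FUL-AG, 2.58 points (0.660 to 4.63), still left out 0 there. Among sites with no near-identical copy, those from FUL, 2.26 points (0.568 to 4.10), and FUL-AG, 2.10 points (0.419 to 3.94), left out 0. Those from FUL-SOC1, 0.422 points (-1.17 to 2.22), and FUL-AG-SEP3, 1.43 points (-0.151 to 3.21), held it. With each list limited to its 1000 most significant peaks, the shares were 14.4% (12.4 to 16.7) for FUL-SEP3 and 13.5% (11.5 to 15.8) for FUL, with overlapping intervals.

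Counted as sites, distal DNA held 72.1 sites per Mb (67.4 to 77.1), against 78.8 per Mb (75.7 to 82.0) in the intergenic DNA within 3 kb of a start and 62.9 per Mb (61.2 to 64.7) inside genes and pseudogenes. Over the pooled sites the density in remote sequence thus lay between those of the other 2 parts, though its interval overlapped that of the other intergenic DNA. In the FUL-AG list distal DNA held 22.3 peaks per Mb, below the 23.0 of other intergenic DNA and the 23.7 of the whole nuclear genome. In each of the other lists the distal value lay between the latter 2 densities. Just inside the limit the nearest member summits lay 3005, 3007 and 3009 bp from a start, with folds of 2.22, 2.79 and 2.97. Just outside it, 3 intergenic summits at 2999, 2996 and 2994 bp had folds of 9.36, 3.59 and 5.04. The first and the last of these are peaks of 2 lists, FUL and FUL-AG-SEP3, at 1 place on chromosome 3.

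A large share of distal sites lay near the centromeres. The pericentromeric block of a chromosome was set as the run of 250-kb windows around the gene-poorest window in which protein-coding genes covered less than 0.5 of the chromosome's median. These blocks held 530 of the 873 distal sites (60.7%, 57.4 to 63.9) but 175 of the 2402 other intergenic sites (7.29%, 6.31 to 8.39), a difference of 53.4 points (50 to 56.8). Over all nuclear sites the share was 16.3%, so that 530 of the 1319 sites of the blocks were distal. The share of distal sites was 43.5% with narrower blocks, set at 0.25 of the median, and 50.4% with each set of near-identical sites counted once. Distal DNA itself is concentrated there, with 7.51 of its 12.1 Mb in the blocks. Per Mb of distal DNA the blocks held 70.6 sites (64.7 to 76.9) and the arms 74.6 (66.9 to 83.0), 2 densities whose intervals overlap. The share of distal sites in the block ranged from 49.7% on chromosome 5 to 68.7% on chromosome 2. Chromosome 1 had 83.2 distal sites per Mb of distal DNA, and the other chromosomes had 65.0 to 72.3. Of the 239 distal sites of chromosome 1, 60 belonged to the repeat set R1 and lay within 0.425 Mb.

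**Figure D1:**
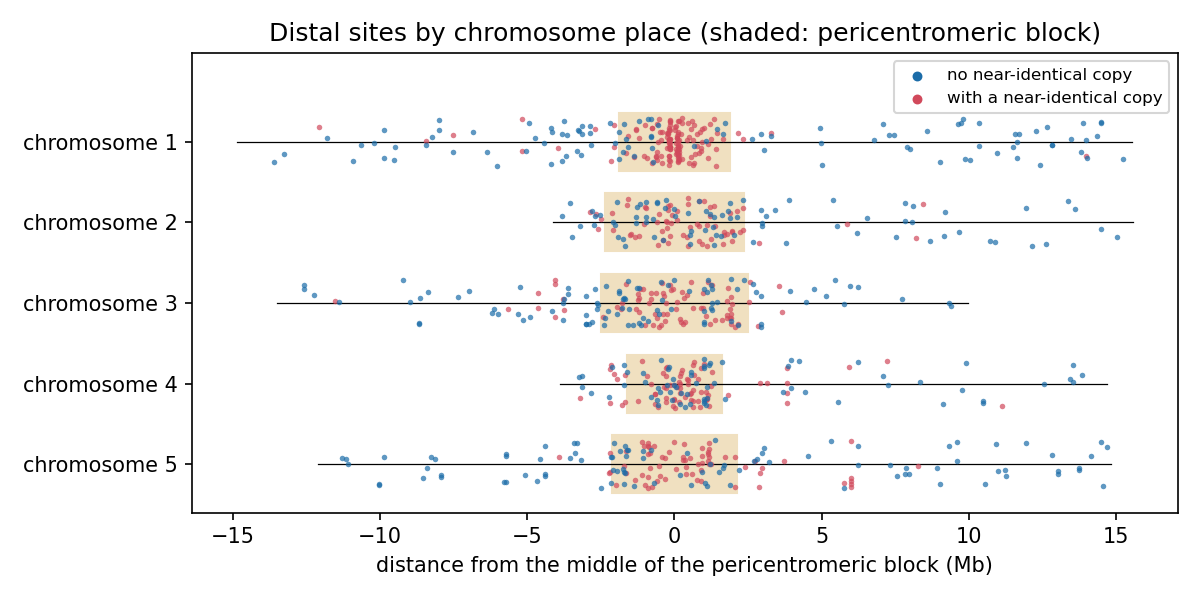
Position of each of the 873 distal sites along its chromosome, as the distance in Mb from the middle of the pericentromeric block (shaded), with vertical scatter for legibility. Sites with a near-identical copy elsewhere (red) crowd into the blocks, which hold 83.2% of them, while 39.0% of the sites without a copy (blue) lie there.

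Distal sites stood a median of 6.54 kb from the nearest protein-coding start (quartiles 3.99 and 18.0 kb), and 340 of them stood more than 10 kb away. Density did not fall steadily with distance. It was 75.8 sites per Mb at 3 to 5 kb, 69.3 at 5 to 10 kb, 80.7 at 10 to 25 kb and 76.2 at 25 to 50 kb, and it was 40.6 for the 45 sites beyond 50 kb. The sites farthest from any start were D496, D495 and D497, at 234, 231 and 213 kb, in a 491-kb gap of chromosome 3 between AT3G32980, a peroxidase gene, and AT3G33187, a defensin-like gene. Each had a peak in only 1 list, FUL-SOC1 with folds of 1.84 and 3.15 for D496 and D495, and FUL-AG-SEP3 with a fold of 2.96 for D497.

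The distal sites were then read across the 5 lists. Fold is the enrichment of reads over Input that MACS2 reports at the summit, and it was compared only within a list. A peak in all 5 lists was found at 61 distal sites (6.99%, 5.48 to 8.87) and at 147 other intergenic sites (6.12%, 5.23 to 7.15), against 6.31% of all nuclear sites, and the difference of 0.867 points had an interval (-0.960 to 2.95) that held 0. Of the 61, 38 lay in the blocks. A peak in 1 list only was found at 444 distal sites (50.9%, 47.5 to 54.2) and at 1200 other intergenic sites (50%, 48.0 to 52.0), against 51.3% of all nuclear sites. Here too the difference, 0.901 points, had an interval (-2.97 to 4.76) that held 0. Over the whole lists these 2 shares thus differed from those of intergenic sites close to genes by less than counting error. With each list limited to its 1000 most significant peaks, the single-list difference was -10.4 points (-17.0 to -3.76).

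The 444 sites of a single list were spread unevenly, with 258 for FUL-SOC1, 104 for FUL-AG-SEP3, 52 for FUL, 15 for FUL-AG and 15 for FUL-SEP3. FUL-SOC1 was the longest list. Of the distal sites with a FUL-SOC1 peak, 47.0% (42.9 to 51.2) had no peak of another mixture, while for FUL-AG that share was 5.34% (3.26 to 8.62). Of the 281 distal sites with a FUL-AG peak, 243 (86.5%) also had a FUL-AG-SEP3 peak, and of the 188 with a FUL-SEP3 peak, 154 (81.9%) did. Of the 269 with a FUL peak, 129 (48.0%) also had a FUL-SOC1 peak. These shares were close to those of the other intergenic sites, 85.7%, 83.7% and 47.5%.

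The interval of the difference between distal and other intergenic sites left out 0 in 3 of the 20 ordered pairs of lists. Sites with a FUL peak also had a FUL-AG peak in 50.9% of distal and 40.4% of other intergenic cases, a difference of 10.5 points (3.62 to 17.3), and a FUL-SEP3 peak in 53.5% and 43.7%, a difference of 9.81 points (2.90 to 16.6). Sites with a FUL-AG-SEP3 peak also had a FUL-AG peak in 50.4% and 44.6%, a difference of 5.85 points (0.658 to 11). Without R2 the 3 differences were 4.76 points (-2.33 to 11.9), 3.97 points (-3.18 to 11.2) and 2.66 points (-2.63 to 7.97). Among sites with no near-identical copy they were 8.37 points (-1.18 to 18.0), 11.7 points (2.03 to 21.1) and 3.22 points (-3.69 to 10.2), so that of the 3 only FUL with FUL-SEP3 left out 0 there.

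Fold differed by list over all nuclear peaks, and the distal peaks followed the same order. The median distal fold was 4.32 for FUL (quartiles 3.32 and 6.05), 3.98 for FUL-SEP3 (3.48 and 4.69), 3.26 for FUL-AG, 3.07 for FUL-AG-SEP3 and 3.03 for FUL-SOC1. Over all nuclear peaks the medians were 3.95, 3.79, 3.23, 3.13 and 3.06 in that order, so the order of lists is not particular to distal peaks. Ranked among all nuclear peaks of the same list, the median distal peak stood at the 60.2 percentile in FUL, 57.5 in FUL-SEP3, 52.6 in FUL-AG, 47.8 in FUL-SOC1 and 44.7 in FUL-AG-SEP3. Without R2 these medians were 52.4, 44.5, 48.0, 48.0 and 41.7 in the same order of lists. Among sites with no near-identical copy they were 62.7, 49.2, 52.0, 49.6 and 45.8. The highest 10% of the FUL list took in 49 distal peaks, 18.4% of them (14.2 to 23.5), and the highest 10% of FUL-SEP3 took in 30 (16.5%, 11.8 to 22.6). In FUL-SOC1 the share was 10.4% (8.10 to 13.3), that of the list as a whole. Of the 49 and 30 tall peaks, R2 supplied 20 and 19. Without R2 the shares were 12.3% in FUL, 7.28% in FUL-SEP3 and 12.9% in FUL-AG. Among sites with no near-identical copy they were 17.2% (11.4 to 25.1) in FUL, 9.09% (4.68 to 16.9) in FUL-SEP3 and 12.7% (7.97 to 19.6) in FUL-AG.

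In every list the median fold was higher at sites shared by all 5 lists than at sites of that list alone. In FUL-AG-SEP3 the median distal peak stood at the 26.9 percentile at sites of 1 list and at the 89.9 percentile at sites of all 5. In FUL these percentiles were 31 and 83.1, in FUL-AG 28.0 and 80.9, in FUL-SOC1 38 and 74.7, and in FUL-SEP3 41.3 and 73.9. The lists share the Input samples, and they hold only peaks that passed calling, so a site of 1 list was not shown to be unbound in the others.

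CArG-boxes were searched on both strands in the 200 bp around the summit of the highest peak of each site. An exact box, with no mismatch, was present at 126 distal sites (14.4%, 12.3 to 16.9) and at 296 other intergenic sites (12.3%, 11.1 to 13.7), against 13.1% of all nuclear sites, and the interval of the 2.11-point difference (-0.464 to 4.90) held 0. Among all 57312 windows of 200 bp that tile the distal DNA, 1.17% (1.09 to 1.26) had an exact box, and among windows 1000 bp beside the distal summits 1.26% (0.705 to 2.24) did. The median exact box lay 18.5 bp from the summit, and 109 of the 126 lay within 50 bp. With at most 1 mismatch allowed, a box was present at 575 distal sites (65.9%, 62.7 to 68.9), a difference of -4.29 points (-7.96 to -0.695) from the 70.1% of the other intergenic sites, against 67.5% of all nuclear sites and 24.4% of tiled windows. Among sites without a copy this difference was -2.50 points (-7.34 to 2.09). The remaining 298 distal sites (34.1%) had no near-canonical box, and they were among 2627 nuclear sites without one (32.5%).

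Exact boxes went with occupancy. Of the 126 distal sites with an exact box, 23 (18.3%) had a peak in all 5 lists, against 11 of the 298 sites (3.69%) whose best box had 2 or 3 mismatches, a difference of 14.6 points (8.15 to 22.4). Sites of 1 list made up 29.4% of the former and 56.0% of the latter. The same contrast among other intergenic sites was 11.8% against 3.91% for all 5 lists. Among the distal sites of these classes without a near-identical copy, the all-5 shares were 7 of 60 (11.7%) and 8 of 141 (5.67%), and the interval of their difference (-1.82 to 16.9) held 0, while the single-list shares, 35.0% and 58.2%, had a difference of -23.2 points (-36.5 to -8.06). Fold followed the box in each list. In FUL-SEP3 the median distal peak stood at the 77.3 percentile with an exact box and at 39.0 with 2 or 3 mismatches, and in FUL-SOC1, where the difference was smallest, at 51.9 and 42.5.

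**Figure D2:**
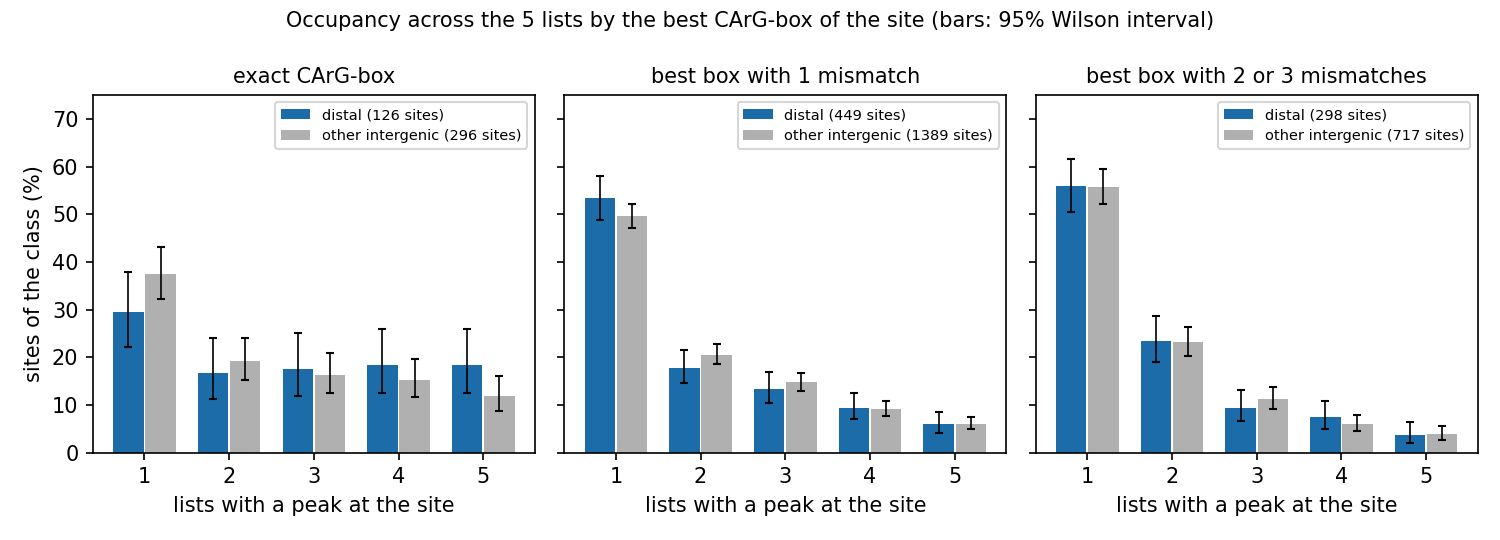
Share of sites (%, vertical axis) by the number of lists with a peak (horizontal axis), for distal and other intergenic sites, in 3 panels by the best CArG-box within the 200-bp window. Bars carry 95% Wilson intervals. Distal sites with an exact box spread over 1 to 5 lists, 18.3% of them in all 5, and those with 2 or 3 mismatches fall off to 3.69%.

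The boxes were also counted from the genome's side. The distal DNA holds 750 exact CArG-boxes, and 154 of them (20.5%, 17.8 to 23.6) lay inside a peak of at least 1 list, so that about 4 in 5 were in no peak. In the other intergenic DNA 357 of 2358 did (15.1%, 13.7 to 16.6), a difference of 5.39 points (2.27 to 8.73). Boxes within peaks of all 5 lists were 28 (3.73%) and 37 (1.57%). The excess was found among boxes in repeated sequence. Of 331 distal boxes whose surrounding 200 bp had a near-identical copy, 81 (24.5%) were in a peak, and of 419 without a copy 73 (17.4%, 14.1 to 21.3) were. The latter share differed by 1.25 points (-2.47 to 5.46) from the 16.2% of other intergenic boxes without a copy.

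**Figure D3:**
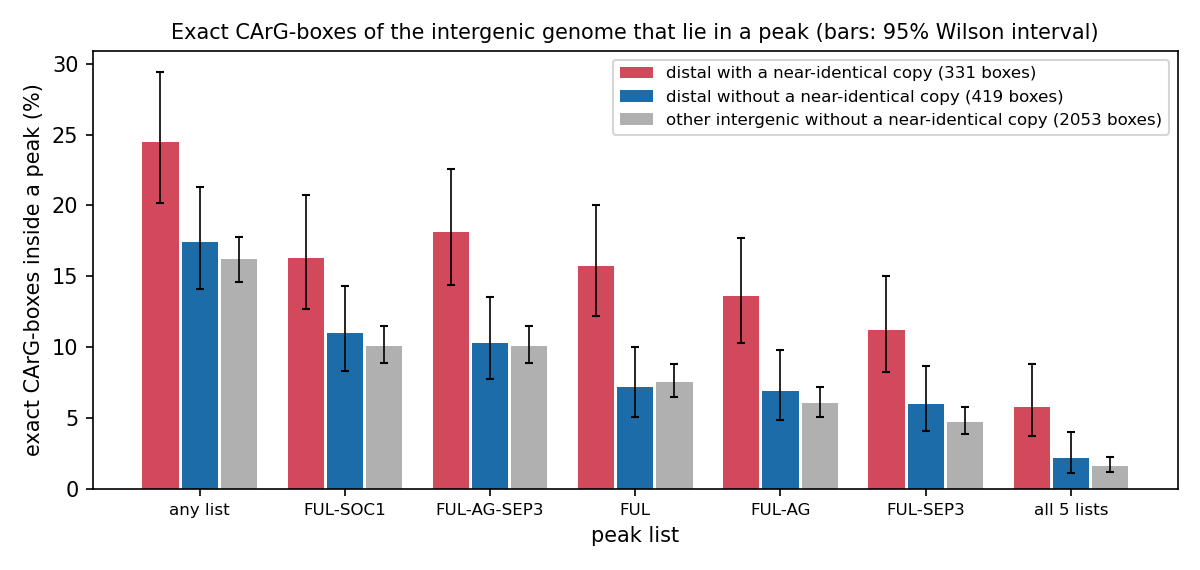
Share of exact CArG-boxes (%, vertical axis) that lie inside a peak of any list, of each list, or of all 5 lists (horizontal axis), for distal boxes with and without a near-identical copy and other intergenic boxes without one. Bars carry 95% Wilson intervals. In any list, 24.5% of repeated distal boxes, 17.4% of unrepeated ones and 16.2% of the other intergenic boxes lie in a peak.

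The letters inside the box differed in how often they were bound. Of the 76 distal boxes that read CCAAAAATGG on either strand, 29 (38.2%, 28.1 to 49.4) lay in a peak, and of the 199 in other intergenic DNA 68 (34.2%) did. Of the 35 distal ones without a near-identical copy, 6 did, and the R2 repeat has 24 stretches over the whole genome with an exact box and a peak. Of the 36 that read CCAAAATTGG, 2 (5.56%, 1.54 to 18.1) did, and of the 142 elsewhere 11 (7.75%). Thus 2 exact boxes of the same length differed severalfold in either territory. CCATATATGG, the box of D55 and D672, was in a peak at 6 of 10 distal places (60.0%, 31.3 to 83.2) and at 3 of 47 other intergenic places (6.38%, 2.19 to 17.2). Its distal share was the highest of the 36 possible boxes, and some boxes, such as CCATAAAAGG, had the lower share in distal DNA. Of the 5 distal CCATATATGG boxes without a copy, 2 were in a peak.

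Among boxes with 1 mismatch, the mismatch lay at the fourth letter from the nearer end in 74 of 449 distal sites (16.5%) and in 5.62% of 1389 other intergenic sites. Of those 74 sites, 41 belonged to R1, whose commonest box reads CCAAAAGAGG on one strand and CCTCTTTTGG on the other. Outside R1 the share was 8.15%.

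Some distal sites without a near-canonical CArG-box held a MEF2-type box, the form bound by the MEF2 class of MADS-domain proteins in animals, in which CTA and TAG frame the run of A or T letters. It was found at 65 of the 298 distal sites with no CArG-box of at most 1 mismatch (21.8%, 17.5 to 26.8), at 17.7% of the corresponding 717 other intergenic sites, and in 1.10% of the windows that tile the distal DNA. With each set of repeats counted once, it was found at 35 of 213 such sites (16.4%, 12.1 to 22.0). This element overlaps the CArG-box pattern with 2 mismatches and was looked for after the sequences of R3 had been seen.

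Many distal sites lay in repeated sequence. A near-identical copy, at least 90% identical over at least 50% of the site, was found elsewhere in the nuclear genome for 429 distal sites (49.1%, 45.8 to 52.5) and for 8.37% of other intergenic sites, a difference of 40.8 points (37.3 to 44.2), against 15.1% of all nuclear sites. Distal DNA is itself rich in repeats: 331 of its 750 exact CArG-boxes, bound or not, had a near-identical copy of the surrounding 200 bp. Whether bound distal sites have a copy more often than unbound distal DNA was not tested. In the blocks 67.4% of distal sites had a copy, against 47.4% of the 789 other sites there, a difference of 20 points (14.6 to 25.1), and in the arms 21% of distal sites did. Among sites with a copy, 220 had 10 or more, and the most was 768. A read from 1 copy can match another, and how the alignment placed such reads is not given in the sources used here, so binding at 1 copy cannot be told apart from binding at its near-identical neighbours. For 287 distal sites the copy included another distal site, and these fell into 49 sets. R1, R2 and R3 were the largest, with 63, 31 and 30 sites, and they behaved in 3 different ways.

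R2 was dispersed, and reads of its near-identical copies cannot be told apart. Its 31 sites lay on all 5 chromosomes, 28 of them in the blocks. The genome holds 43 stretches of this sequence, of which 41 overlapped a peak. These stretches include the 31 sites, which have a peak by definition, so most of that count was fixed in advance. Counted the same way, with overlapping matches joined, 38 of 134 stretches of R1 and 36 of 165 of R3 overlapped a peak. All 31 sites had a FUL-AG-SEP3 and a FUL-SEP3 peak, 30 had a FUL peak, 30 a FUL-AG peak and 12 a FUL-SOC1 peak. The most frequent pattern, at 18 sites, was a peak in every list except FUL-SOC1, and 11 sites had all 5. The peaks were tall in 4 of the lists. The FUL fold ranged from 3.97 to 11.59 with a median of 8.50, at the 95.5 percentile of the list, and the FUL-SEP3 fold from 3.61 to 7.71 with a median of 5.69, at the 92.8 percentile. The medians in FUL-AG-SEP3 and FUL-AG stood at the 83.9 and 83.8 percentiles. In FUL-SOC1 the 12 peaks ranged from 2.60 to 3.46 and their median stood at the 44.2 percentile. The repeat as a set was thus among the tallest peaks of the FUL and FUL-SEP3 lists and in the middle of the FUL-SOC1 list.

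**Figure D4:**
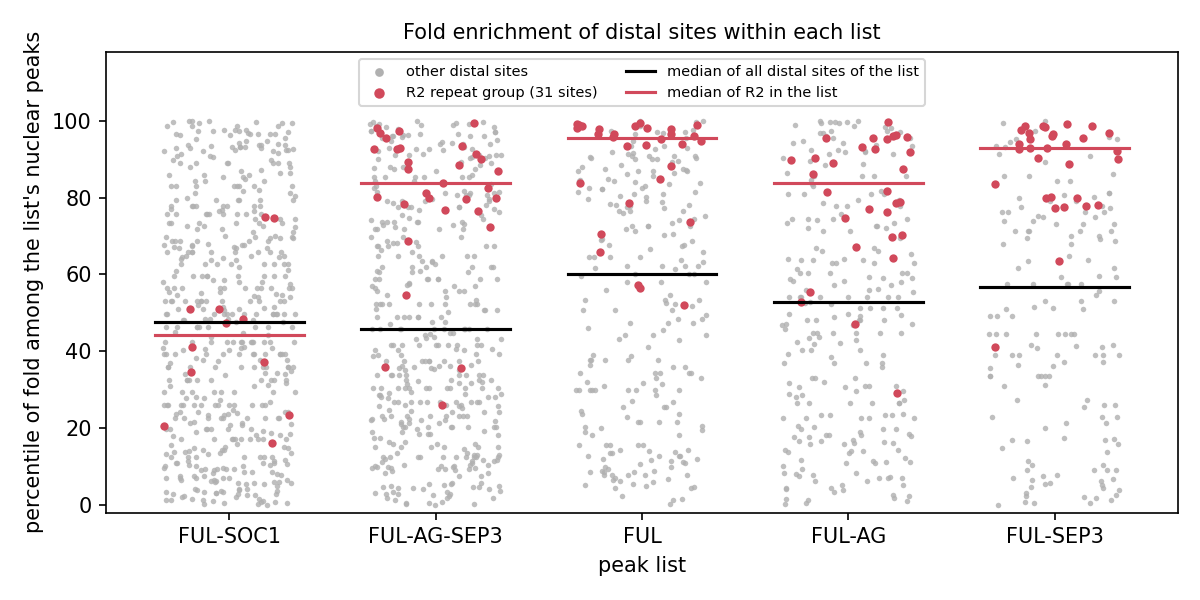
Percentile of fold among the nuclear peaks of the same list (vertical axis) for every distal site with a peak in that list (points, scattered sideways), with the 31 R2 sites in red. Black and red lines are the medians of all distal sites of the list and of its R2 sites. R2 sits at 92.8 to 95.5 in FUL-SEP3 and FUL and at 44.2 in FUL-SOC1.

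The R2 sequence carries several boxes in a row, as D463 and D335 show. At least 2 separate boxes of at most 1 mismatch lay in the 200-bp window of 27 of the 31 sites (87.1%, 71.1 to 94.9), against 19.6% of the other 842 distal sites, and at least 3 lay in 17 (54.8%) against 4.04%. Of the 44 neighbouring pairs of boxes in R2, 38 had starts 16 or 17 bases apart, and 5 more were 33 apart. Outside R2 7 of 203 such pairs (3.45%) were 16 or 17 apart, and the median spacing was 48.0 bases. The best box of an R2 site was exact at 19 sites, each time CCAAAAATGG, and had 1 mismatch at the other 12. Copies of 1 sequence share their letters, so these counts describe 1 repeat and not 31 independent sites.

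R1 was clustered and low. Of its 63 sites, 60 lay within 0.425 Mb of chromosome 1, at 14.6 to 15 Mb, and 3 on chromosome 4. Its peaks were spread over lists, with 40 sites in FUL-AG-SEP3, 38 in FUL-SOC1, 26 in FUL, 23 in FUL-AG and 4 in FUL-SEP3, and 31 sites had a peak in 1 list only. Median folds were 2.69 to 3.21, at the 10.3 to 25.1 percentiles of their lists. The highest was D119 in FUL, at 7.07. At 37 sites the best box was CCAAAAGAGG, with 1 mismatch, and none of those sites had a peak in all 5 lists. At 6 sites it was the exact CCAAAAAAGG on either strand, and 2 of them did, D152 and D94, with highest folds of 5.77 and 4.40.

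R3 was dispersed and led by FUL. Its 30 sites lay on all 5 chromosomes, and 25 had a FUL peak, with folds from 2.65 to 7.47 and a median at the 75.9 percentile. There were 16 FUL-AG-SEP3 peaks, 15 FUL-SEP3 peaks, 11 FUL-SOC1 peaks and 6 FUL-AG peaks. None of the 30 sites had an exact CArG-box and 4 had one with 1 mismatch, while 25 held the MEF2-type box and in 23 the best-matching letters were CTATAAATAG or its reverse complement, as in D74. That site had a peak in all 5 lists and the highest fold of the set.

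The genes on either side of the distal sites were named next. The 873 sites lay in 518 gaps between protein-coding genes, with 371 gaps holding 1 site and 30 holding 5 or more. The fullest gaps were all on chromosome 1 and were filled by R1: 20 sites in the 67.3 kb between AT1G40086 and AT1G40087, 18 in the 157 kb between AT1G38790 and AT1G39060, and 14 in the 29.7 kb between AT1G39060 and AT1G39070. All 20, 17 of the 18 and all 14 were R1 sites. The nearest annotated feature of any kind was a pseudogene for 497 sites (56.9%), against 3.12% of other intergenic sites, and a protein-coding gene for 228 (26.1%), against 85.8%. The rule keeps distal sites away from protein-coding starts and the other intergenic sites near one, so it fixes much of this contrast. The nearest protein-coding gene turned its end to the site in 498 cases and its start in 375. The rule sets a least distance to starts and none to ends, so it favours ends here too. The same count was not made for unbound distal DNA.

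The gaps gave 959 different flanking protein-coding genes. Products named as transcription factors made up 87 of them (9.07%, 7.41 to 11.1), against 5.74% of all 27444 protein-coding genes. Hypothetical or unknown products made up 21.6% (19.1 to 24.3) against 14.7%, and transposon-related products 1.98% (1.27 to 3.07) against 0.404%. Products named as F-box proteins were 1.25% (0.717 to 2.17) against 2.38%, and kinases and receptor-like proteins 4.07% (2.99 to 5.51) against 5.28%. Defensin-like and cysteine-rich products, at 2.29% and 2.31%, were alike. The comparison is with all protein-coding genes. The genes beside unbound remote DNA were not counted.

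The tallest distal site was D534 (chr3:15422629-15423105), between AT3G43520 and AT3G43540 and 0.152 kb from the pseudogene AT3G43526. Its fold was 14.10 in FUL, 10.62 in FUL-SEP3, 8.65 in FUL-AG-SEP3, 7.45 in FUL-AG and 6.1 in FUL-SOC1. It was the highest distal peak of the FUL, FUL-SEP3 and FUL-AG-SEP3 lists and the second of the other 2, although its best box, CTATTTATGG, carries 1 mismatch. The highest distal peak of FUL-SOC1 and FUL-AG was D329 (chr2:5462345-5462891), with an exact CCAAATTTGG 25.6 kb from any start. Its fold was 6.44 in FUL-SOC1, 7.64 in FUL-AG, 6.31 in FUL-AG-SEP3, 6.99 in FUL and 4.45 in FUL-SEP3. D442, 2.75 kb past the end of COBL2, a COBRA-like gene, ranked near the top of 2 lists and low in another. Its fold was 13.03 in FUL and 5.89 in FUL-AG-SEP3, where 0.200% and 0.900% of nuclear peaks were higher, and 2.74 in FUL-SOC1, where 74.0% were higher. It was 6.26 in FUL-SEP3 and 4.25 in FUL-AG. A pair of tall sites lacked a FUL-SOC1 peak and had no near-canonical box, the best having 2 mismatches. D578, 8.84 kb upstream of AT4G04415, had folds of 12.66 in FUL, 6.57 in FUL-SEP3, 5.45 in FUL-AG-SEP3 and 3.8 in FUL-AG. D572, 14.4 kb past the end of AT4G03820, had folds of 7.07 in FUL, 6.58 in FUL-AG-SEP3, 4.94 in FUL-AG and 4.28 in FUL-SEP3. D55, the unrepeated site with the exact CCATATATGG shown above, had all 5 peaks, with folds of 8.17 in FUL, 6.43 in FUL-AG, 5.68 in FUL-AG-SEP3, 4.37 in FUL-SEP3 and 4.07 in FUL-SOC1. D13, 3.84 kb upstream of MYB47, a MYB transcription factor gene, was in FUL-SOC1 alone, with a fold of 5.79 and the third place among distal peaks of that list.

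The sites of all 5 lists with the highest mean percentile of fold included D50, D394 and D847 in the arms. D50 (chr1:12824106-12824692), with 6 near-identical copies, was 11.9 kb past the end of AT1G35040 and 27.5 kb upstream of PHI-1, a phosphate-responsive gene. Its fold was 7.04 in FUL, 6.48 in FUL-AG, 5.75 in FUL-SOC1, 5.67 in FUL-AG-SEP3 and 4.04 in FUL-SEP3. D394 (chr3:4829069-4829427) was 2.03 kb past the end of NCED3, which encodes an enzyme of abscisic acid synthesis, and 4.35 kb upstream of AT3G14430. Its fold was 10.19 in FUL, 6.22 in FUL-AG, 6.16 in FUL-SEP3, 6.1 in FUL-AG-SEP3 and 3.82 in FUL-SOC1. D847 (chr5:18378775-18379199) was 8.01 kb upstream of CYP707A3, which encodes an enzyme that breaks the hormone down. Its fold was 7.75 in FUL-SEP3, 6.89 in FUL, 5.62 in FUL-AG-SEP3, 5.0 in FUL-AG and 3.86 in FUL-SOC1. D394 and D847 had no near-identical copy, and their boxes, each with 1 mismatch, lay 9.5 bp before and 8.5 bp after the summit.

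A list of 75 genes of flowering, meristem, fruit and hormone control, with the MIR156, MIR159 and MIR172 families, was compared with the flanking genes. It met 11 genes at 12 sites, of which 3 had a peak in all 5 lists, 3 had a peak in 1 list and 4 held an exact box. Over all nuclear sites the shares were 6.31%, 51.3% and 13.1%, and 959 of all 27444 protein-coding genes flanked a distal site. The 3 sites of all 5 lists were D366, D231 and D672. D366 (chr2:10676612-10677115) was 0.252 kb from the annotated hairpin of MIR156a, whose microRNA restrains the SPL genes of phase change. By the annotation's note on the gene, the site's highest summit lies within the longer primary transcript, which the annotated gene does not cover. Its folds were 9.55 in FUL, 5.97 in FUL-SEP3, 4.83 in FUL-AG-SEP3, 3.88 in FUL-AG and 2.92 in FUL-SOC1. D231 was 3.96 kb upstream of CUC3, an organ-boundary gene, and closer, 0.929 kb, to the end of AT1G76430, a phosphate transporter gene. Its folds were 6.52, 3.09, 4.24, 5.21 and 3.50 in the same order of lists. D672 was 0.922 kb past the end of KNAT1, a homeobox gene of the inflorescence, and held an exact CCATATATGG, with folds of 3.85, 2.48, 3.84, 4.72 and 3.02. D672 had 7 near-identical copies and the other 2 none.

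Fruit regulators had partial sets of peaks. HEC2, a basic helix-loop-helix gene of the gynoecium, had D555 at 3.35 kb upstream, with an exact CCAAATAAGG and folds of 5.57 in FUL-SEP3, 3.86 in FUL, 3.50 in FUL-AG-SEP3 and 2.87 in FUL-AG, and no FUL-SOC1 peak. SPT, a related gene of carpel margins, had D704 and D705 at 5.14 and 4.71 kb upstream. D704 had peaks of FUL (3.62), FUL-AG-SEP3 (2.77) and FUL-SEP3 (2.73), while D705, with an exact CCAAATTAGG, had peaks of FUL-AG (3.27), FUL-AG-SEP3 (3.15) and FUL-SOC1 (2.63). Neighbouring distal sites of 1 gene thus differed in the lists that called them.

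Among flowering genes, TFL1, a repressor of the floral transition, had D709 past its end. Only the FUL-SOC1 summit of that site was distal, 1.79 kb from the end, with a fold of 2.65, and the overlapping peaks of FUL-AG-SEP3 (3.76) and FUL-AG (3.39) had summits outside the definition. RAP2.7, also known as TOE1 and an AP2-type repressor, had D371 at 0.506 kb past its end with an exact box and folds of 2.97 in FUL-AG-SEP3 and 2.47 in FUL-SOC1. D368, 0.551 kb from the annotated hairpin of MIR172a and within its primary transcript by the same kind of note, had only a FUL-SEP3 peak of 2.36. That peak was near the bottom of its list, where 98.7% of nuclear peaks were higher, and its best box had 2 mismatches. Among gibberellin synthesis genes, GA20OX2 had D854 at 4.68 kb upstream with folds of 5.33 in FUL, 3.59 in FUL-SEP3 and 3.29 in FUL-AG. GA3OX1 and GA20OX1 each had a FUL-SOC1 peak alone, D10 at 2.52 and D696 at 2.88. The peak of D10 stood at the 12.5 percentile of that list.

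Exactly 5 distal sites (0.573%, 0.245 to 1.33) held 2 or more exact CArG-boxes, against 0.291% of other intergenic and 0.297% of all nuclear sites. All 5 lay in the blocks, as did 60.7% of all distal sites. D345, near LCR84, had all 5 lists, with folds of 5.86 in FUL-AG, 5.75 in FUL, 5.05 in FUL-AG-SEP3, 4.45 in FUL-SEP3 and 4.23 in FUL-SOC1. D490 had peaks of FUL (6.34), FUL-SEP3 (4.48) and FUL-AG-SEP3 (4.03). D444 (4.18) and D517 (2.71) had FUL-SOC1 peaks alone, and D627 had a FUL-SEP3 peak alone (3.89).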

How the data were processed

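DAP-seq was read from 5 peak lists, 1 per protein mixture, on Arabidopsis TAIR10. Per the labels and the study's methods, the authors trimmed reads with Trim Galore, aligned them to TAIR10 with HISAT2 and, with the 3 replicates of a mixture combined, called peaks against Input with MACS2. Versions and the treatment of reads that match several places are not given in the sources used here. The deposited values are the fold enrichment at the summit (a ratio over the local background), 2 columns of −log10 values (p-value, then q-value), a score equal to 10 times −log10 q rounded down in all 16105 rows, and the offset of the summit. The lowest deposited −log10 q was 1.30, a q threshold of 0.05. Total reads per sample were not used here, so the depth behind a fold is unknown, and a shorter list cannot be told apart from a shallower one.

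Peak summits were placed on RefSeq's TAIR10.1 annotation, whose nuclear chromosomes have the names and lengths of TAIR10, with 27444 protein-coding genes. The 95 mitochondrial peaks were left out. Peaks overlapping by at least 1 bp were joined into sites. A site was placed by its highest distal summit, and CArG-boxes were read in the 200 bp centred on its highest summit. Copies were sought with BLAST 2.17.0 (at least 90% identity over at least 50% of the length). Blocks were set on 250-kb windows smoothed over 5. Shares carry 95% Wilson intervals, differences 95% Newcombe intervals and densities exact Poisson intervals, computed with Python 3.11.15, NumPy 2.4.6, pandas 2.3.3 and SciPy 1.17.1. No p-value was computed, because pooling left 1 value per mixture. The scripts were tested on simulated data. Alternatives changed the distance limit, the definition of intergenic, the joining of peaks, the lists and the copy limits.

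Named sites were the 3 highest distal peaks of each list, up to 8 sites of all 5 lists by mean percentile of fold, the 3 farthest from a start, the 3 fullest gaps, up to 5 sites with 2 or more exact boxes, the peaks at the 3-kb limit, and sites flanked by a gene on a list of 75 genes or a MIR156, MIR159 or MIR172 gene. Sites flanked by 1 further gene group of that rule are not reported here. The members and lists were chosen with earlier results of these data known. The splits by box letters, box spacing, MEF2-type box and repeat set were added after the sequences had been seen.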

Additional observations from a re-analysis of the deposited data

How the results depend on the processing

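No paired analysis was possible because the 3 replicates of each mixture were combined before peak calling, so no list carries a replicate number and no replicate could be left out. Of 125 alternative values for 18 results, 89 stayed within the counting interval of the main value and 36 moved past it. A reversal of direction could not be called. The results were shares and percentiles, which cannot be negative, and differences whose main intervals held both signs. The sign of a difference could still change. The single-list difference was 0.901 points in the main setting and -10.4 points with 1000 peaks per list. Distal shares followed the definition of distal. For FUL-SOC1, then FUL-AG-SEP3, then FUL, then FUL-AG and last FUL-SEP3, they were 16.3, 15.1, 14.7, 13.3 and 18.3% beyond 2 kb, 6.82, 6.67, 6.49, 6.22 and 8.05% beyond 5 kb, 17.6, 16.6, 15.1, 17.4 and 17.8% when only protein-coding genes counted as genic, and 4.45, 4.58, 4.78, 3.84 and 6.53% when starts of every gene type and pseudogene counted. With each list limited to its 1000 most significant peaks they were 11.1, 12.3, 13.5, 11.6 and 14.4%, and the FUL-SEP3 interval (12.4 to 16.7) overlapped that of every other list.

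That restriction to 1000 peaks also put the share of distal sites in 1 list at 42.5%, a difference of -10.4 points from other intergenic sites (-17.0 to -3.76), and the share with an exact box at 23.6%, a difference of 6.65 points (1.37 to 12.4). These 2 differences left out 0 there and held it over the whole lists. Joining peaks by summits within 100 bp put the share in 1 list at 55.7%, and counting each repeat set once, an alternative chosen after the data were seen, put it at 54.2%. Without FUL-SEP3, 10% of distal sites were in all 4 remaining lists. With at most 1 mismatch the share with a box was 65.9%, a difference of -4.29 points. The share of distal sites in the blocks was 43.5% with blocks set at 0.25 of the median gene coverage and 50.4% with each repeat set counted once. The share with a near-identical copy was 60.3% at 80% identity over 50% of the site and 29.1% at 95% over 80%.

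The lists hold no read counts, so a site absent from a list was not shown to be unbound, and list length cannot be told apart from depth. Reads of near-identical copies cannot be told apart, which touches 429 of the 873 distal sites, and their part in the folds was not tested. No separate transposon annotation was used, and whether the annotated pseudogenes include transposon genes was not examined.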
